A study of Mus musculus and Rattus norvegicus with 6 samples.

Results

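The genes described here are the 9 that encode enzymes of de novo fatty acid synthesis and proteins close to it: Acly, Acss2, Acaca, Acacb, Fasn, Me1, Thrsp, Aacs and Tkfc. They were chosen by symbol, and every probe set annotated to 1 of these symbols was taken. This gave 23 of 45037 probe sets on the mouse arrays and 15 of 31042 on the rat arrays. Another mouse probe set, annotated to both Acss2 and Gssos2, was left out; its signals were 2.4 to 4.3.

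The series measured liver RNA on Affymetrix arrays in 20-week-old males that lack leptin and in wild-type (WT) controls, with 1 array in each of 6 groups. The mice, of C57/BL6J background, were WT given saline, Lepob/Lepob given saline and Lepob/Lepob given leptin. The rats, of F344/NSlc background, were WT given saline, Lepmkyo/Lepmkyo given saline and Lepmkyo/Lepmkyo given leptin. Saline or recombinant murine leptin was injected into the peritoneum, and the liver was taken 6 h later. Lepob is a mutant allele of the leptin gene in mice and Lepmkyo one in rats; the homozygotes make no functional leptin, the satiety hormone of adipose tissue. Some rat labels spell the allele Lepmyo or name Lepob instead, and Lepmkyo was taken from the descriptions. The labels do not say how many animals an array stands for. With 1 array a group there is no replicate spread and no test, and "higher" and "lower" below set 1 array against another.

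De novo fatty acid synthesis turns surplus carbohydrate into palmitate in the cytosol of hepatocytes. Citrate exported from mitochondria, or acetate, gives acetyl-CoA, which is carboxylated to malonyl-CoA and then built into a fatty acid chain with reducing power from NADPH. In liver the pathway is induced after a carbohydrate meal, by insulin through SREBP-1c and by glucose and fructose metabolites through ChREBP, and fasting lowers it. ATP citrate lyase (Acly) and the acetyl-CoA synthetase Acss2 make cytosolic acetyl-CoA. The acetyl-CoA carboxylases make malonyl-CoA: Acaca serves the cytosolic synthesis, and Acacb sits at the mitochondrial outer membrane, where its product restrains fatty acid oxidation. Fatty acid synthase (Fasn) builds palmitate, and malic enzyme (Me1) supplies NADPH. Thrsp is a small nuclear and cytosolic protein induced with these enzymes, Aacs activates acetoacetate for lipid synthesis, and Tkfc phosphorylates the glyceraldehyde that comes from fructose.

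The values are MAS5 signals, which reduce the probes of a probe set to 1 linear brightness per array. Each gene is read from its brightest probe set (by mean signal), with its other probe sets given beside it. Signals under a floor, the median of all values of a species' arrays (82.7 in mice, 97.0 in rats), were raised to it before a log2 ratio was taken, so that a ratio with 1 array under the floor is a bound. A gene entered a comparison if at least 1 of its 2 arrays reached the floor, which all 9 genes did in mice and 8 of 9 in rats. Acacb stayed under the floor on all 3 rat arrays, at 96.5, 67.1 and 70.7, and has no ratio there. The only measure of spread at hand was the disagreement between probe sets of the same gene. Their log2 ratios had a pooled SD of 0.43 in both species between mutant and WT saline arrays. Between leptin and saline mutant arrays it was 0.24. This SD holds nothing of the variation between animals, nor of an error common to a whole array.

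All 8 hepatocyte markers were over the floor on all 6 arrays. Their summed signal was 341118 in WT saline, 271287 in mutant saline and 275536 in mutant leptin mice, and 273665, 244411 and 263537 in the same groups of rats. The 9 genes are also active in adipose tissue. The adipocyte hormone Adipoq had signals of 17.2 to 41.3 in mice and 4.9 to 35.5 in rats, under the floor throughout. Of the adipocyte markers on the arrays, 3 of 3 in mice and 4 of 5 in rats were under the floor on every array, the exception being Cfd in rats at 599.3, 462.8 and 502.0. Stellate cell markers summed to 4226 in WT, 7063 in saline mutant and 6870 in leptin mutant mice. In rats they summed to 2116, 5967 and 6117. Kupffer cell markers summed to 10906, 15846 and 13691 in mice and to 6530, 7491 and 8326 in rats. Markers of 1 list did not all go 1 way. In rats Col3a1 read 1265.5, 4913.8 and 5001.6, and Lrat and Col1a1 were also higher in both mutants. Rat Rgs5 read 281.3, 211.2 and 270.9, and rat Des 106.9, 109.5 and 90.1. Rat Adgre1 read 340.3, 323.1 and 304.0, while the other rat Kupffer cell markers were higher in both mutants. Mouse Apob read 33521, 38883 and 40558, while the other mouse hepatocyte markers were lower in both mutants. In mice Des, Clec4f and Marco were lower in both mutants than in WT, and the other stellate and Kupffer cell markers higher. The part of these other cells in the ratios below was not tested, and fewer cells of a type and less RNA per cell cannot be told apart in bulk tissue. The Lep transcript itself was at 2.8 to 6.0 on all 6 arrays and so gave no check of genotype in liver.

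**Figure D1:**
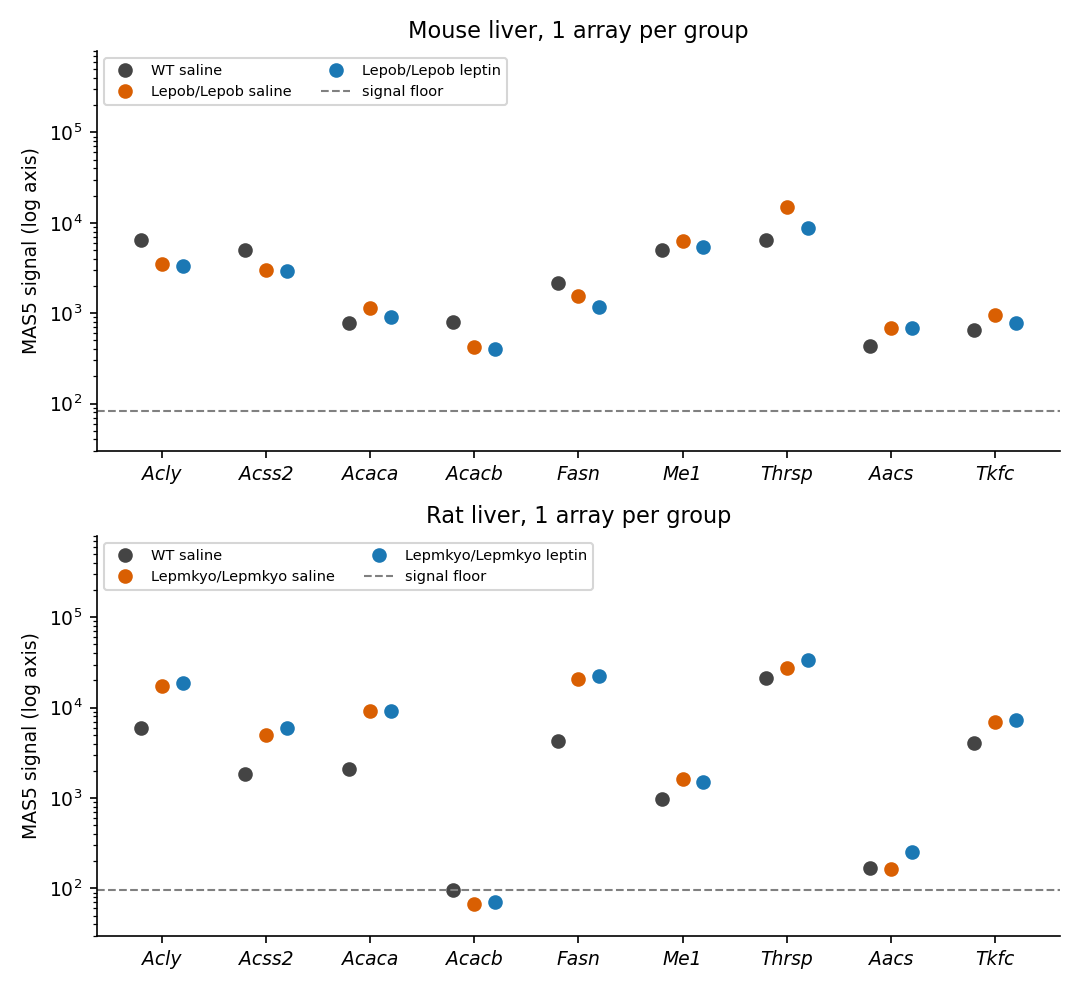
MAS5 signals (log axis) of the probe set that represents each gene, with 1 point for each array, in mice (top) and rats (bottom); the dashed line is the signal floor. In rats both mutant arrays lie above WT for Acly, Acss2, Acaca and Fasn, whereas in mice both mutant arrays lie below WT for Acly, Acss2, Acacb and Fasn. Probe sets differ in sensitivity, so heights are comparable along 1 gene only.

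In saline-injected mice the log2 ratios of the 9 genes lay on both sides of 0, and probe sets of Acaca and of Aacs disagreed. Acly, Acss2, Acacb and Fasn were lower in the Lepob/Lepob liver than in WT, and Thrsp, Aacs, Tkfc, Acaca and Me1 were higher on their brightest probe sets. Only Thrsp passed 2-fold. Thus 1 of 9 genes was at least 2-fold higher, where 4.46% of all 11956 genes measured were, and 0 were at least 2-fold lower, where 3.71% of all genes were. At 1.5-fold, 2 of 9 were higher (Thrsp and Aacs) against 12.3% of all genes, and 3 of 9 lower (Acly, Acss2 and Acacb) against 12.6%. The median log2 ratio of the 9 genes was 0.33 and that of all genes -0.03. The median changed sign with the choice of probe sets: it was -0.15 when each gene was taken as the median over its probe sets. The share of higher genes among all genes 2-fold apart was 54.6% as deposited, 65.3% after quantile normalization and 80.4% with arrays centred on their medians, which raised the median ratio of all genes by 0.24. All 9 genes kept their direction under both of these scalings.

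Of the acetyl-CoA producers, Acly had signals of 6440 in WT saline, 3461 in mutant saline and 3353 in mutant leptin mice. Both mutant arrays were low. The saline mutant was 1.86-fold lower than WT, a log2 ratio of -0.90 that ranked 608th from the lowest of 11956 genes. A second bright probe set of Acly, at 5907, 2829 and 2169, gave a 2.09-fold lower signal, and a dimmer one, at 831.4, 275.8 and 270.1, a 3.01-fold lower signal. Another, at 107.4 in WT, was under the floor in both mutants and lower by at least 1.30-fold, and the remaining pair of probe sets was under the floor on every array. All measured probe sets of Acly thus pointed the same way, with sizes that ran from under 2-fold to 3.01-fold.

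Acss2 had signals of 4998 in WT saline, 3026 in mutant saline and 2892 in mutant leptin mice. It was 1.65-fold lower in the saline mutant, and 1.34-fold lower on a second probe set at 3610, 2704 and 2304. Its dimmest probe set lay at the floor, at 74.2, 84.1 and 95.2.

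The carboxylases differed on their brightest probe sets. Acacb, the mitochondrial form, read 791.8 in WT saline, 418.8 in mutant saline and 404.9 in mutant leptin mice. It was 1.89-fold lower, a log2 ratio of -0.92, the lowest among the brightest probe sets of the 9 genes. Acaca, the cytosolic form, read 776.2, 1135 and 911.7 in the same order and was 1.46-fold higher in the saline mutant. Its other, dim probe set, at 149.5, 66.4 and 58.2, was at least 1.81-fold lower. The direction of Acaca in mice therefore depended on the probe set, and the median over both was -0.15.

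Fasn, measured by 1 mouse probe set, read 2167 in WT saline, 1544 in mutant saline and 1182 in mutant leptin mice. It was 1.40-fold lower in the saline mutant, a log2 ratio of -0.49 beside a probe set SD of 0.43. Me1 read 4998, 6261 and 5358 and was 1.25-fold higher; its second probe set, at 1863, 2257 and 1879, was 1.21-fold higher. For Me1 the log2 ratios of both probe sets, 0.33 and 0.28, were under the probe set SD, while the ratio of Fasn was slightly over it.

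Thrsp stood out upward. Its signals were 6406 in WT saline, 15005 in mutant saline and 8836 in mutant leptin mice, so that the saline mutant was 2.34-fold higher, a log2 ratio of 1.23 and rank 326 from the highest of 11956. A second probe set, at 2397, 6909 and 3800, was 2.88-fold higher. The third was dim, at 18.4, 102.7 and 41.9, and at least 1.24-fold higher. Thrsp stayed at least 2-fold higher under all 7 alternative settings tried.

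Aacs read 434.5 in WT saline, 682.0 in mutant saline and 687.1 in mutant leptin mice, 1.57-fold higher in the saline mutant. A second probe set of similar brightness, at 511.8, 495.8 and 536.5, showed 1.03-fold lower, so its probe sets disagreed. Tkfc, with 1 probe set, read 648.3, 963.3 and 773.2 and was 1.49-fold higher.

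The mouse promoters of Acly, Acss2, Fasn and Thrsp are shown because Fasn, Acly and Acss2 had the largest gaps in log2 ratio between the rat and mouse comparisons and Thrsp was the 1 mouse gene past 2-fold. The sequences are the 250 bases before the gene start in RefSeq, build GRCm38.p6, read 5′ to 3′ on the gene's strand. Capitals mark matches, on either strand, to any of 5 motifs searched: the CCAAT box (CCAAT), the GC box (GGGCGG), the TATA box (TATAAA), the E-box (CACGTG) and the sterol regulatory element (TCACNCCAC). Acly lies at chr11:100528001-100528250 and Fasn at chr11:120824548-120824797, both on the minus strand. Acss2 lies at chr2:155517793-155518042 on the plus strand and Thrsp at chr7:97417551-97417800 on the minus strand.
Acly: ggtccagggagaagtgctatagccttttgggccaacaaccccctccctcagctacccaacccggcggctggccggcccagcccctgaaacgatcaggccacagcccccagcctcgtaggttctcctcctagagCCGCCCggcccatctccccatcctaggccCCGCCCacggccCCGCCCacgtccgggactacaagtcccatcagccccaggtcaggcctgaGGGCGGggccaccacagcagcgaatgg
Acss2: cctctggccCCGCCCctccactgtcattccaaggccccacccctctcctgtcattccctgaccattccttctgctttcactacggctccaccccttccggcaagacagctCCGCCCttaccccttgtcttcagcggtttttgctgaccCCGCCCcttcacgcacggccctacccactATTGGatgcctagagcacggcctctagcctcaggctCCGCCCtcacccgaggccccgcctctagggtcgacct
Fasn: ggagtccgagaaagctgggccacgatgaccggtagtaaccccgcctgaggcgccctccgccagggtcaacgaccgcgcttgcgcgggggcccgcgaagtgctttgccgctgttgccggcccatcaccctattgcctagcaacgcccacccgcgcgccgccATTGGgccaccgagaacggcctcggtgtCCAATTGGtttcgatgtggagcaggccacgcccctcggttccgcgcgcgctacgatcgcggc
Thrsp: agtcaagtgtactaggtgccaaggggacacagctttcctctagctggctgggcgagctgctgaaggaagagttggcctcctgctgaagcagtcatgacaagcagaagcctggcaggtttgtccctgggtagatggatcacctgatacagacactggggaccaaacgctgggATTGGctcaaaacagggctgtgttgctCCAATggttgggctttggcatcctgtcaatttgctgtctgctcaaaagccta
The promoters of Acly and Acss2 each held 4 GC boxes, and Acss2 also 1 CCAAT box. Fasn held 3 CCAAT boxes, 2 of which overlap on opposite strands 55 to 62 bases before the start. Thrsp held 2. All 9 genes had a promoter entry, and Me1 had 2 starts, of which the first is counted here. A CCAAT box was in 5 of 9 (Acss2, Acacb, Fasn, Thrsp and Tkfc), against 33.8% of all 32851 mouse promoters of this length. A GC box was in 3 of 9 (Acly, Acss2 and Me1) against 32.7%, and a TATA box in 1 of 9 (Acacb) against 12.4%. The E-box and the sterol regulatory element were in 0 of 9, against 6.02% and 1.05% of all promoters. These are letter matches in a short window before an annotated start, and their absence says only that those letters are not there. Whether the annotated start is the one used in liver was not tested, for Acaca or for the other genes. The rat promoters were not analysed here.

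**Figure D2:**
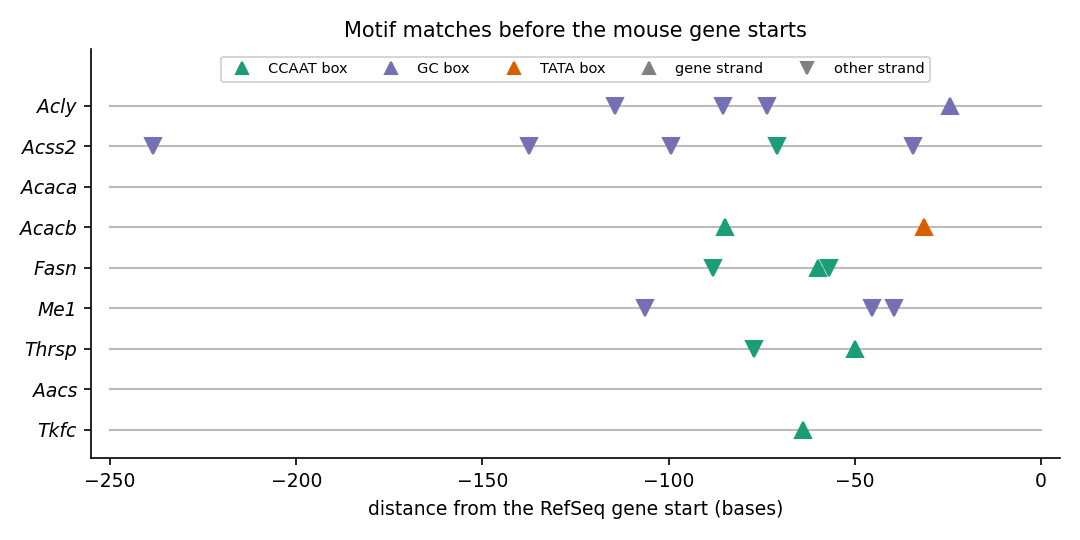
Positions of motif matches in the 250 bases before the mouse gene start (x axis, bases from the start), 1 line for each gene; triangles pointing up are on the gene's strand and those pointing down on the other. Most matches of Acly, Acss2, Fasn and Thrsp lie within 120 bases of the start, and Acaca and Aacs have 0 matches before the annotated starts used.

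In saline-injected rats Fasn, Acly and Acss2 went opposite to mice, and Acaca was higher as on the brightest mouse probe set. Fasn, Acaca, Acly and Acss2 were 2.66-fold to 4.81-fold higher in the Lepmkyo/Lepmkyo liver than in WT. Of the 8 genes with a ratio, 4 passed 2-fold upward, as did 2.99% of all 9817 genes, and 0 were 2-fold lower, where 1.45% were. With Tkfc and Me1, 6 of 8 were at least 1.5-fold higher against 10.2% of all genes, and 0 were 1.5-fold lower against 5.92%. The median log2 ratio was 1.10, beside 0.04 for all genes. The 4 genes were 2-fold higher under all 7 alternative settings.

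Fasn read 4298 in WT saline, 20667 in mutant saline and 22150 in mutant leptin rats. Both mutant arrays were far above WT. The saline mutant was 4.81-fold higher, a log2 ratio of 2.27 and rank 16 from the highest of 9817 genes. The second rat probe set of Fasn, at 1558, 10885 and 10123, was 6.99-fold higher. Acaca read 2069, 9163 and 9290 and was 4.43-fold higher, rank 22. Its dim second probe set did not follow, at 135.8, 125.4 and 142.5, and the median over both gave a log2 ratio of 1.02 in place of 2.15.

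Acly, with 1 probe set, read 6007 in WT saline, 17248 in mutant saline and 18698 in mutant leptin rats, 2.87-fold higher in the saline mutant and rank 92 from the highest. Acss2, also with 1, read 1862, 4955 and 5957 and was 2.66-fold higher, rank 117. Both steps that make cytosolic acetyl-CoA were thus high on both mutant arrays, together with the carboxylase and the synthase that use it.

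Tkfc read 4080 in WT saline, 7019 in mutant saline and 7285 in mutant leptin rats and was 1.72-fold higher, while a dim probe set at 221.8, 176.7 and 144.6 was 1.26-fold lower; the median over both was 0.23. Me1 read 970.0, 1640 and 1502 and was 1.69-fold higher, with its second probe set, at 815.2, 1295 and 1526, 1.59-fold higher. Thrsp was among the bright probe sets of these arrays, at 21282, 27593 and 33256, and 1.30-fold higher. Its other probe sets were 1.55-fold (16312, 25260 and 28869) and 1.95-fold (7102, 13844 and 16732) higher. The ratio was smaller the brighter the probe set. Aacs read 170.3, 164.4 and 250.2, so that the saline mutant and WT arrays were within 1.04-fold.

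**Figure D3:**
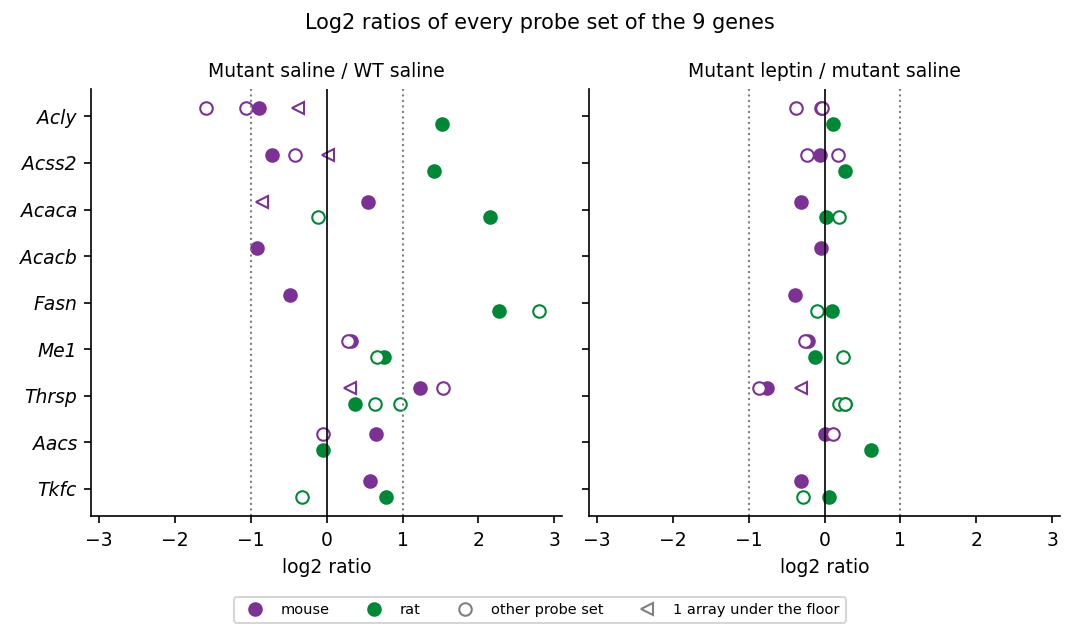
Log2 ratios of every measured probe set of the 9 genes, mutant saline over WT saline (left) and mutant leptin over mutant saline (right), mice in purple and rats in green. Filled points are the probe set that represents the gene, open points its other probe sets, triangles have 1 array under the floor, and dotted lines mark 2-fold. On the left the filled points of Acly, Acss2 and Fasn lie below 0 in mice and above 1 in rats; on the right every point is within 2-fold.

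Set side by side, the species differed most at Fasn, with log2 ratios of -0.49 in mice and 2.27 in rats, a gap of 2.76. Acly had ratios of -0.90 and 1.52 and Acss2 of -0.72 and 1.41. Acaca was higher in both on its brightest probe sets, by 0.55 in mice and 2.15 in rats. Thrsp went the other way in size on its brightest probe sets, at 1.23 in mice and 0.37 in rats. Its other rat probe sets were at 0.63 and 0.96, and its other mouse probe sets at 1.53 and, as a bound, 0.31. Tkfc at 0.57 and 0.78 and Me1 at 0.33 and 0.76 were the most alike on theirs, although a dim rat probe set of Tkfc was at -0.33. Of the 8 genes measured in both species, 4 had opposite signs on their brightest probe sets, the remaining one being Aacs at 0.65 and -0.05. A second mouse probe set of Aacs, of similar brightness, was at -0.05, the same sign as in rats, where the signals were near the floor. The share of all genes with opposite signs was not computed. Species, strain, mutation and array design differ together here and cannot be told apart, and the difference between species was not tested.

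**Figure D4:**
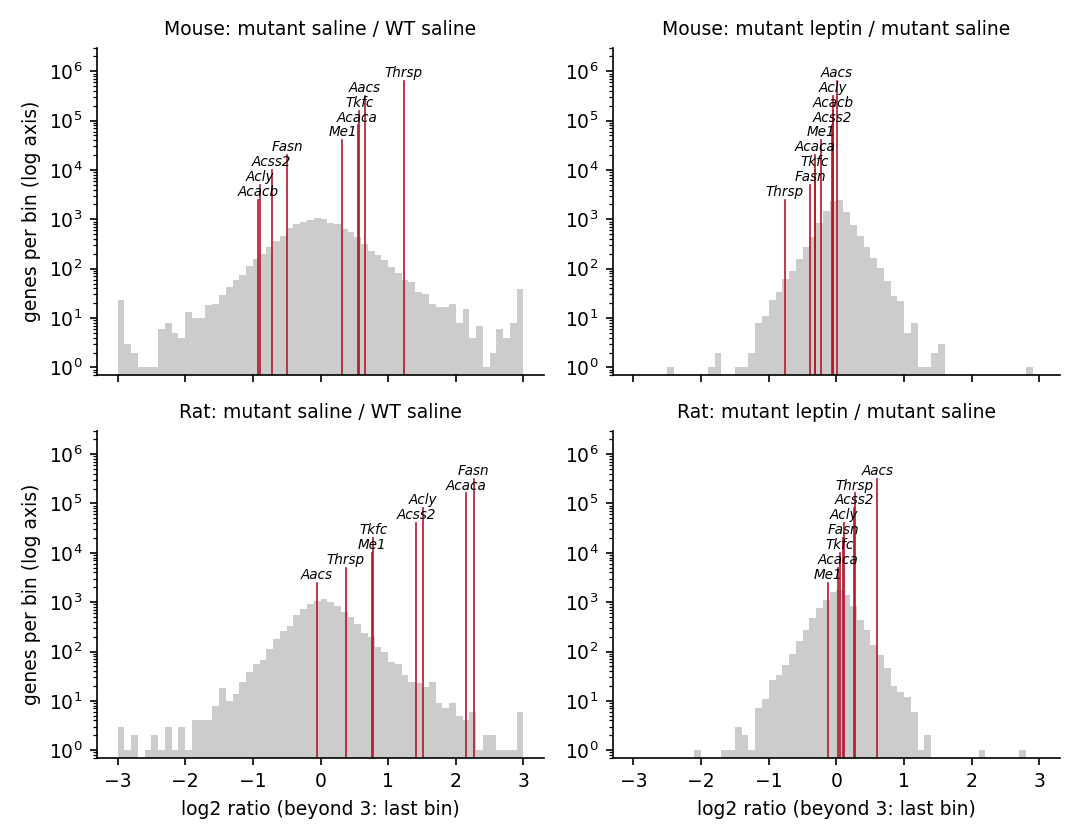
Distribution of the log2 ratios of all genes measured (grey bars, genes per bin of 0.1 on a log axis) with the 9 genes (8 in rats) marked by red lines, in mice (top) and rats (bottom), for mutant saline over WT saline (left) and mutant leptin over mutant saline (right). In rats Fasn and Acaca lie in the far right tail on the left side; in the mouse panel the genes lie on both sides of 0.

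The leptin injection was meant to find genes that respond before food intake and body weight change. In Lepob/Lepob mice 8 of 9 genes had a lower signal 6 h after leptin than after saline, and 0 of 9 was 2-fold apart, where 0.182% of 11536 genes were 2-fold higher and 0.243% lower. The median log2 ratio was -0.22, with a range from -0.76 to 0.01. That of all genes was -0.00, so all genes lay about evenly on both sides of 0. Thrsp was the only 1 of the 9 past 1.5-fold, a threshold that 2.21% of all genes passed downward and 2.18% upward. On the brightest of its probe sets it was 1.70-fold lower, at 8836 against 15005, which ranked 104th from the lowest, and 1.82-fold lower on the second, at 3800 against 6909.

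Fasn was 1.31-fold lower after leptin, Tkfc 1.25-fold, Acaca 1.24-fold and Me1 1.17-fold lower. Acly, Acacb and Acss2, the genes that were lowest in the saline mutant, were within 1.05-fold on their brightest probe sets, although the second probe set of Acly was 1.30-fold lower. Aacs was at 682.0 after saline and 687.1 after leptin, and its sign turned when arrays were centred on their medians. On the brightest probe sets, the ratios other than those of Thrsp, Fasn, Acaca and Tkfc were within the probe set SD of 0.24. The saline mutant array enters both mouse ratios, so a deviation of that 1 array moves a gene's genotype and leptin ratios in opposite directions. For Thrsp those ratios were 1.23 and -0.76, for Tkfc 0.57 and -0.32, for Acaca 0.55 and -0.32, and for Fasn -0.49 and -0.38.

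In Lepmkyo/Lepmkyo rats 7 of 8 genes had a higher signal after leptin, by small amounts that turned sign for Acaca and Fasn after quantile normalization. None of the 8 was 2-fold apart (0.237% of 9705 genes were higher and 0.278% lower). The median log2 ratio was 0.11 beside 0.01 for all genes, so all genes lay about evenly on both sides of 0. On the brightest probe sets only Aacs, Thrsp and Acss2 had ratios over the probe set SD of 0.24. Aacs was the furthest, at 164.4 after saline and 250.2 after leptin, 1.52-fold higher and the 1 gene of 8 past 1.5-fold, where 2.12% of all genes were; 0 were 1.5-fold lower, against 2.59% of all genes. The Aacs signals are near the floor of 97.0. Thrsp was higher by 1.21-fold on the brightest of its probe sets and by 1.14-fold and 1.21-fold on the others. Acss2 was 1.20-fold, Acly 1.08-fold and Fasn 1.07-fold higher, and Me1 1.09-fold lower. The second probe sets of Fasn, Me1 and Tkfc pointed the other way from the first. Thrsp was thus lower after leptin on all 3 of its mouse probe sets and higher on all 3 of its rat probe sets; this difference was not tested.

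Among all genes 2-fold apart after leptin in rats, 46.0% were higher as deposited and 59.2% with arrays centred on their medians. Compared with WT directly, the leptin-injected mutants had 0 of 9 genes 2-fold higher in mice (3.98% of 11958 genes) and 0 of 9 lower (3.46%), and 4 of 8 higher in rats (2.83% of 9742) and 0 of 8 lower (1.61%). At 1.5-fold, 1 of 9 mouse genes was higher (11.4% of all genes) and 4 of 9 lower (11.7%), and 7 of 8 rat genes were higher (10.3%) and 0 lower (6.85%). These ratios share their arrays with those above. Among all mouse genes 2-fold apart here, 53.5% were higher as deposited and 76.5% with arrays centred on their medians. In mice Acacb was 1.96-fold, Acly 1.92-fold, Fasn 1.83-fold and Acss2 1.73-fold below WT, and Thrsp 1.38-fold above it. The other Acly probe sets over the floor on every mouse array were 2.72-fold and 3.08-fold below WT. Acly passed 2-fold downward under 3 of 7 alternative settings. In rats Fasn was 5.15-fold, Acaca 4.49-fold, Acss2 3.20-fold and Acly 3.11-fold above WT.

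Other genes of the pathway were read from 5 lists. Suppliers of substrate and NADPH had a median log2 ratio of 0.41 between saline mutant and WT mice and of 0.22 in rats. Of those measured, 1 of 13 in mice and 2 of 14 in rats passed 2-fold upward and 0 downward. For this and the lists below, the shares over all genes were 4.46% higher and 3.71% lower in mice and 2.99% and 1.45% in rats. Slc25a1, the mitochondrial citrate carrier, read 4309 in WT and 2866 in mutant saline mice, a log2 ratio of -0.59, and 3200 and 3834 in rats, a log2 ratio of 0.26. The pentose phosphate enzymes Pgd and Taldo1, the first of which makes NADPH, were 2.41-fold and 2.23-fold higher in rats. In mice they were 1.84-fold and 1.55-fold higher, and the other mouse probe sets of Pgd had log2 ratios of 0.12, 0.64 and 0.83. In mice the gene past 2-fold was the mitochondrial transhydrogenase Nnt, at 4544 and 10070, 2.22-fold higher. Its other bright probe set, at 3274 and 5874, had a log2 ratio of 0.84, so the call was lost with the median over probe sets and without the _x_, _s_ and _a_ probe sets.

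The list that feeds glucose and fructose carbon had medians of 0.52 over 5 genes in mice and 0.35 over 8 in rats. Pyruvate kinase (Pklr) was 2.11-fold higher in rats, the 1 gene of this list past 2-fold. Its mouse probe sets disagreed: the brightest was 1.77-fold higher, and the other pair had log2 ratios of -0.95 and -1.30. The 20 genes of transcription control measured in mice had a median of -0.28, and 2 of them passed 2-fold, both downward. These were Insig1, a sterol sensor that retains SREBP in the endoplasmic reticulum, at 5130 in WT and 2083 in mutant saline (2.46-fold lower), and Mlxipl, which encodes ChREBP, at 8706 and 3610 (2.41-fold lower). Srebf1, which encodes SREBP-1, was 1.19-fold higher. In rats 0 of 21 were 2-fold apart and the median was 0.04; Srebf1 read 3077 and 5789, 1.88-fold higher (another probe set had a log2 ratio of -0.09), Insig1 9565 and 14251, 1.49-fold higher, and Mlxipl 858.0 and 814.6, 1.05-fold lower.

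Genes that control the carboxylases or the use of malonyl-CoA had medians of 0.07 over 13 genes in mice and 0.10 over 12 in rats. Mid1ip1, the paralog of Thrsp that promotes polymerisation of acetyl-CoA carboxylase, read 1946 in WT and 1031 in mutant saline mice, 1.89-fold lower, and 2871 and 3489 in rats, 1.22-fold higher. In mice it thus went opposite to Thrsp. Malonyl-CoA decarboxylase (Mlycd) was within 1.02-fold in mice and 1.19-fold lower in rats. The carnitine palmitoyltransferase Cpt1a, which malonyl-CoA inhibits, was 2.42-fold higher in mice, with other probe sets at log2 ratios of 0.35 and 0.56 that did not pass 2-fold, and 1.44-fold lower in rats, with another at -2.40. Trib3, a pseudokinase, was 2.27-fold higher in mice and 3.01-fold higher in rats; these were the genes past 2-fold, 2 of 13 and 1 of 12. The mouse call of Trib3 was lost with log2(signal + floor), at 0.98, and with the floor at the 75th percentile, at 0.70.

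Genes that use palmitate had medians of 0.16 in mice and 0.26 in rats over 15 genes each. The elongase Elovl6, which takes palmitate to stearate, was 3.94-fold higher in rats, at 679.3 in WT and 2680 in mutant saline, and within 1.01-fold in mice, at 1970 and 1980. The glycerol-3-phosphate acyltransferase Gpam was 2.79-fold higher in rats and 1.99-fold in mice, although a dim mouse probe set had a log2 ratio of -0.40. The rat probe sets were dim: the brightest reached 418.5 in mutant saline, and the other read 135.7 in WT and 185.7, a log2 ratio of 0.45, so the rat call was lost with the median over probe sets (0.97). The thioesterase Acot1 was 3.69-fold higher in mice. In this list 1 of 15 genes in mice and 2 of 15 in rats passed 2-fold upward. After leptin, the medians of these lists ran from -0.15 to 0.05 in mice and from -0.10 to 0.04 in rats. In this comparison 0 genes of the 5 lists were 2-fold apart in mice and 1 in rats: Insig1, at 14251 after saline and 7116 after leptin, beside 0.278% of all rat genes lower. Its log2 ratio lay at the threshold and was -0.94 with arrays centred on their medians and -0.99 with log2(signal + floor), which ended the call.

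The 8 genes with a value in both species did not share 1 profile. Their median profile over the 4 genotype and leptin log2 ratios was 0.44 and -0.27 in mice and 1.10 and 0.11 in rats. Of the 7401 genes with all 6 arrays at or over the floor, the 5 nearest to it among other genes were Casp4, Sparcl1, Esam, Gja1 and Prnp, at root mean square distances of 0.107 to 0.126 over the 4 ratios. The genes themselves lay further off: Tkfc at 0.175 (rank 29 of 7401) and Me1 at 0.215 (rank 63) were close, while Acly at 0.708 (rank 4638) and Fasn at 0.748 (rank 5154) were not.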

How the data were processed

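Liver total RNA, extracted with Trizol per the labels' protocols, was hybridised to Affymetrix arrays, 1 array for each of 6 groups, 3 per species. The deposited intensities, linear and 1 per probe set, come from MAS5 (version not given), which the authors ran per the submitters' processing notes. Trimmed means (2% off each end) were 496 to 497 on all arrays, while medians ran from 77.0 to 91.9 in mice and 93.6 to 99.3 in rats; low MAS5 signals carry much noise, and the number of arrays limits the precision.

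Symbols came from the platform annotation, updated in mice by gene identifier to GRCm38.p6; promoter sequences are those of RefSeq. Only probe sets with exactly 1 symbol were used. Floors, log2 ratios, the 2-fold call and the choice of probe set are as stated with the results, computed in Python 3.11.15 with numpy 2.4.6 and pandas 2.3.3 and tested on simulated data. The 9 genes, the lists (5 of the pathway, 7 of cell type markers) and the settings were chosen with earlier results of these data known. Named genes were the 9 genes on all probe sets, list genes at least 2-fold apart (up to 4 per list and comparison), Srebf1, Mlxipl, Mid1ip1, Slc25a1 and Mlycd, and the 5 genes nearest to the median profile; values of Pgd, Taldo1, Pklr, Insig1, Cpt1a, Elovl6 and Gpam in the other species are given for contrast, chosen after they were seen. The remaining lists of cell types (endothelial, cholangiocyte and red blood cell) are given under other observations. Alternatives were quantile normalization, centring on medians, the median over a gene's probe sets, a floor at the 25th or at the 75th percentile, omission of the probe sets marked _x_, _s_ or _a_, log2(signal + floor), and a 1.5-fold call.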

Additional observations from a re-analysis of the deposited data

Results flagged for a closer look

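Of the genes measured in both species, 3 moved in opposite directions between saline mutant and WT arrays by more than the SD between a gene's probe sets. Acly had a log2 ratio of -0.90 in mice and 1.52 in rats, Acss2 of -0.72 and 1.41, and Fasn of -0.49 and 2.27. Thrsp did so in the leptin comparison, with -0.76 in mice and 0.27 in rats. Each value compares 1 array with another, and none of these differences was tested. The share of all genes that pass the same rule was not computed.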

How the results depend on the processing

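Of 138 alternative values for counts and medians of the 9 genes, 126 stayed close to the reported value and 12 moved; of 354 values for single genes 9 moved, and 0 called values reversed. With the 1.5-fold call the counts became 2 higher and 3 lower for saline mutant against WT mice, 1 lower for leptin against saline mutant mice, 1 higher and 4 lower for leptin mutant against WT mice, 1 higher for leptin against saline mutant rats and 7 higher for leptin mutant against WT rats. The count of mouse genes 2-fold lower rose from 0 to 1 without probe sets that can bind several transcripts, both for saline mutant and for leptin mutant against WT, and for the latter also after quantile normalization and with the median over probe sets. That median over probe sets also turned the mouse genotype median to -0.15. Single genes that moved were Acaca, Acly, Fasn and Tkfc, where probe sets of a gene differ. For the pathway lists, 210 alternative medians stayed within the probe set SD, and 35 of 420 counts of genes 2-fold apart moved by over 1.5 times. Between saline mutant and WT mice, centring on medians raised the count of higher genes from 0 to 2 in the list that feeds glucose and fructose carbon, and without the _x_, _s_ and _a_ probe sets that of the genes controlling the carboxylases fell from 2 to 0. No replicate could be left out, and no paired analysis was possible because each group is 1 array. Signal over background limits Acacb and Aacs in rats and the dim probe sets of Acaca.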

Other observations

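Other cell markers differed between the arrays as well. Endothelial markers summed to 3425 in WT saline, 5226 in saline mutant and 4743 in leptin mutant mice and to 5476, 6833 and 7733 in rats. In mice Lyve1 differed most, at 478.4, 1855.6 and 1714.2, and Kdr and Stab2 were also higher in both mutants. Mouse Pecam1 was lower in both, at 216.1, 109.7 and 150.2, and mouse Cdh5 read 506.3, 596.9 and 432.0. Rat Kdr read 2142.9, 2098.2 and 2619.7, and the other rat endothelial markers were higher in both mutants. Cholangiocyte markers summed to 527.7, 268.3 and 295.5 in mice and to 438.5, 787.1 and 770.6 in rats. Of the 4 in mice, 3 were over the floor in WT saline, 0 in saline mutant and 1 in leptin mutant. Red blood cell markers summed to 2791, 1274 and 1176 in mice and to 338.0, 448.5 and 435.4 in rats. The mouse sum was nearly all Alas2, at 2771.2, 1142.4 and 1101.8, with Hba-a1 and Slc4a1 under the floor on every array. In rats Alas2 was higher in both mutants than in WT and Slc4a1 lower. The hepatocyte gene Tat, tyrosine aminotransferase, read 5897 in WT saline rats and 849.7 and 960.5 in saline and leptin mutants, beside 12472, 10093 and 11908 in the same groups of mice. It was singled out after its values were seen.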
